A study of Mus musculus with 14 samples.

Results

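Astrocytes of the upper and of the deep layers of the mouse cerebral cortex were compared across all genes. The members are the 6 libraries whose titles name upper layer astrocytes (3 libraries) or deep layer astrocytes (3 libraries), out of 14 libraries in the whole series. All mice were of the SW strain, were 14 days old and carried Aldh1l1-GFP, a reporter in which the astrocyte gene Aldh1l1 drives green fluorescent protein, and the labels name no treatment or other allele. Upper and deep layers had been parted by hand, the tissue was dissociated with papain, and live GFP-positive cells were collected by flow sorting as astrocytes. The other 8 libraries were GFP-negative cells (non-astrocytes, 2 libraries per layer) and bulk tissue (2 per layer) of the same layers, and here they serve to set the spread and as a comparison. The reporter marks cells by 1 promoter, and the labels do not say how many animals went into a library. Values are normalised read counts, that is, the reads of a gene after division by the size factor of its library. A difference is the log2 ratio of upper over deep layers from limma on log2 of the value plus 1, a scale that understates changes of genes with low values.

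The 6 astrocyte libraries held 18226457 to 23550783 reads in genes. Mitochondrially encoded genes took 16.0% of the reads in deep layer library 2 and 5.70% to 6.12% in the other 5 astrocyte libraries, so results are also given without that library. Each astrocyte library held reads of Xist, which is transcribed from the inactive X chromosome of females (36833 to 135481 normalised read counts, the highest in deep layer library 2), and of 4 Y-linked genes (sums of 3967 to 6540). Each of the 20 astrocyte markers examined was among the 29.6% of genes that passed as higher in the sorted astrocytes than in non-astrocytes (66.3% passed in either direction, 36.8% lower). Aldh1l1 itself stood at 3056, 2559 and 3939 in the deep and at 3791, 4303 and 4516 in the upper layer libraries (log2 0.42, adjusted p = 0.467), against 94.7 to 133 in non-astrocytes. The cell type field of the upper layer astrocytes and of the upper layer non-astrocytes reads bulk tissue, against their titles, and the titles were followed here. Among the other libraries, upper layer non-astrocyte library 1 stood apart, with 30333 genes detected against 23671 to 26356 in the other 13. Sorted pools are bulk samples, so a smaller share of cells that express a gene and less RNA of it per cell cannot be told apart.

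Cortical astrocytes lie among neurons that differ from layer to layer, and they take up and release signals that shape synapses. BMP ligands act through SMAD proteins to switch on the Id genes, and chordin-like proteins hold the ligands back. Hedgehog ligands free the GLI transcription factors and switch on Hhip, whose product binds the ligand and damps the pathway, while canonical Wnt ligands act through beta-catenin and transcription factors of the TCF/LEF family.

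Between upper and deep layer astrocytes, 9 genes were called higher and 9 lower in the upper layers. They make up 0.0797% of the 22575 genes tested (Benjamini-Hochberg adjusted p below 0.05), or 0.0399% in each direction, and 10.3% of genes had an unadjusted p below 0.05. Higher in the upper layers were Chrdl1, a secreted BMP antagonist, Lef1, a transcription factor of the Wnt pathway, Eogt, an enzyme that adds N-acetylglucosamine to EGF repeats such as those of Notch, and Tnfrsf19, Inka2, Art3, Lyn, Cntnap2 and Pkp2. Lower in the upper layers were Hhip, Id1, Adcy8, Prune2, Ror2, Mycn, the predicted gene Gm12522 and the myelin-associated genes Mbp and Tspan2. In each of the 18 genes the 3 upper layer libraries lay on the same side of the 3 deep layer libraries without overlap. The genes were called on these same libraries, so their separation is not independent evidence. Over all genes tested, 8.7% had the 3 upper libraries above the deep ones and 7.31% below. Of the 9 called genes higher in the upper layers, 5 passed as higher in astrocytes than in non-astrocytes and 4 as lower. Of the 9 called genes lower in the upper layers, 0 passed as higher in astrocytes and 8 as lower. Over all genes these shares were 29.6% and 36.8%. The part of RNA from other cells in the calls was not tested.

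**Figure D1:**
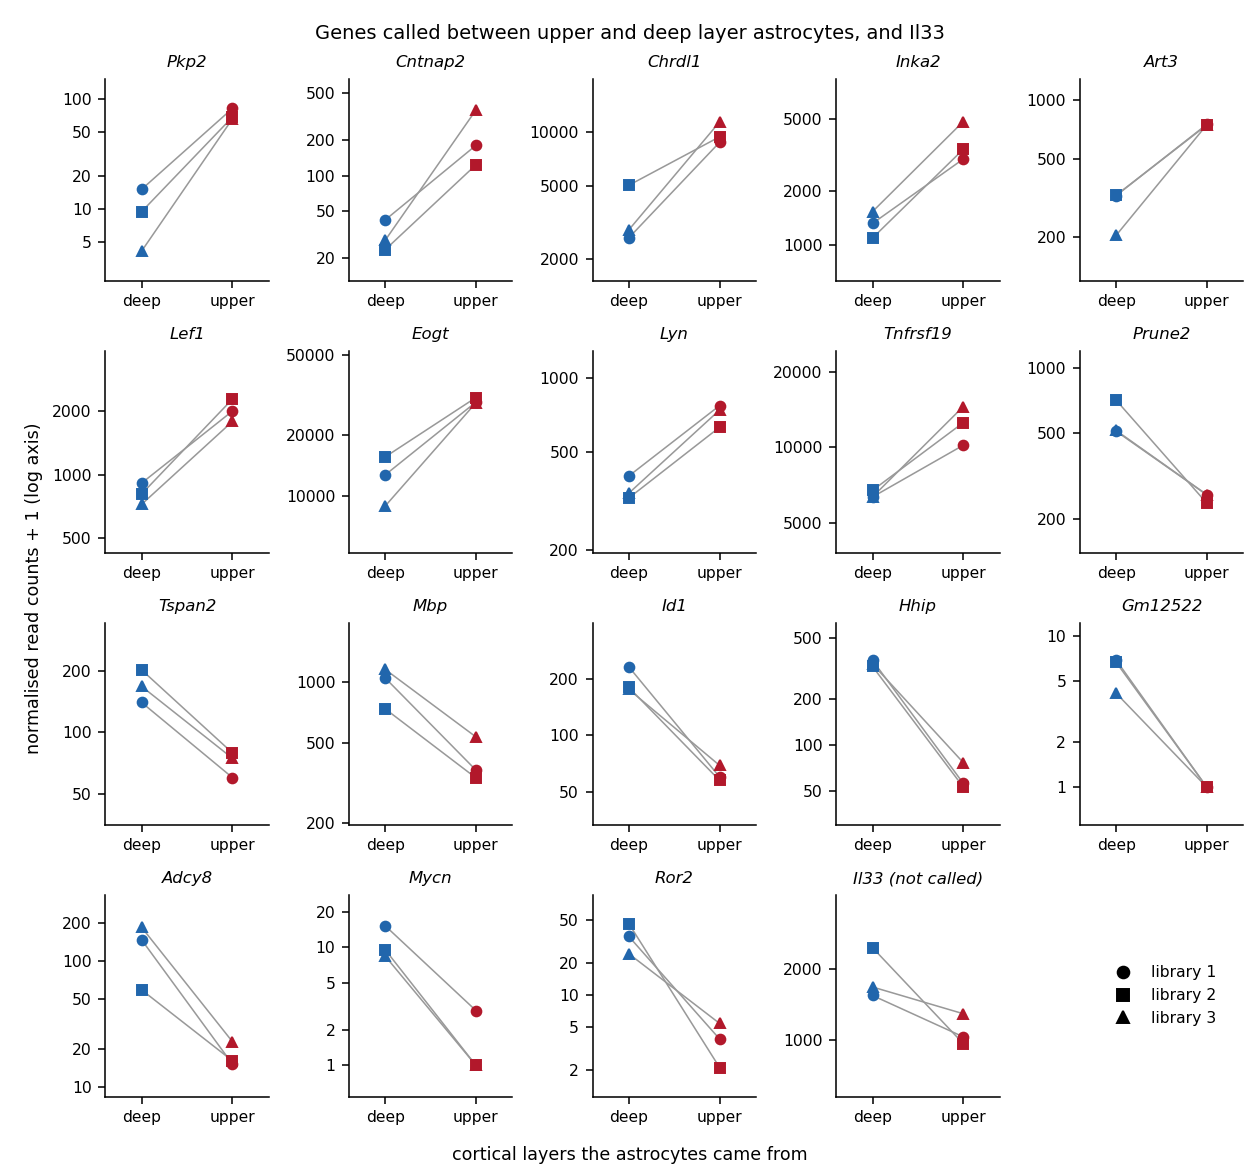
Normalised read counts plus 1 (log axis, a separate scale for each gene) of the 18 called genes and of Il33 in the 3 deep layer (blue) and 3 upper layer (red) astrocyte libraries, with grey lines joining libraries of the same number. In every panel the 2 sets of points do not overlap, and Il33 did not pass the test (adjusted p = 0.339).

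The calls rest on a spread shared by all 14 libraries, with 8 residual degrees of freedom. Fitted on the 6 astrocyte libraries alone, limma called 1 gene, Hhip (adjusted p = 0.0283), while edgeR's quasi-likelihood test on the recovered reads of all 14 libraries called 17 genes (0.0753%, with 0.0443% higher and 0.031% lower), 16 of them among the 18. DESeq2 on the same reads called 142 (0.629%), 15 of them among the 18. Upper and deep astrocyte libraries with the same number deviated together (correlations in the processing notes), so the number was also fitted as a pair. The block within each fraction also paired the non-astrocyte and bulk libraries by number, where pairing was not checked. It leaves fewer residual degrees of freedom than the leading test. With the number as a block within each fraction, limma called 188 genes, or 0.833%, of which 127 (0.563%) were higher and 61 (0.27%) lower in the upper layers, and all 18 were among them. With the block on the 6 astrocyte libraries alone, which leaves 2 residual degrees of freedom, limma called 0 genes, although 2964 had an unadjusted p below 0.05 and edgeR called 16. Without deep layer library 2, 35 genes were called (0.155%), 21 higher (0.093%) and 14 lower (0.062%), and 16 of the 18 remained. Ror2 and Gm12522 were the 2 lost (adjusted p = 0.0685 each). Without deep layer library 1 or 3 the count was 35 or 56, with 14 or 18 of the 18 among them. Without upper layer library 2 or 3 it was 12, with 10 or 8 of the 18 among them. Just inside the threshold stood Ror2 (adjusted p = 0.0319) and Gm12522 (0.0468), and just outside it Dcc (0.0577) and Cavin1 (0.0591).

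**Figure D2:**
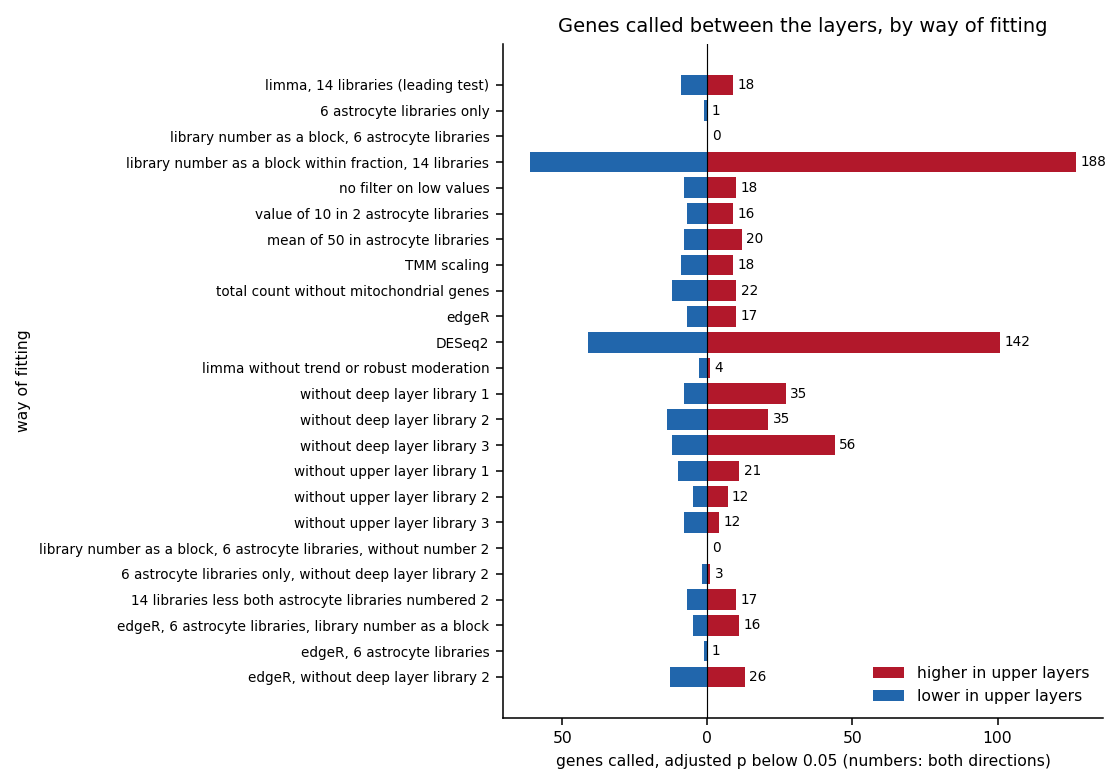
Number of genes called between upper and deep layer astrocytes by each way of fitting, with genes higher in the upper layers to the right of 0 and genes lower to the left. The counts run from 0 with the block on 6 libraries to 188 with the block within fraction on 14 libraries, against 18 by the leading test.

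**Figure D3:**
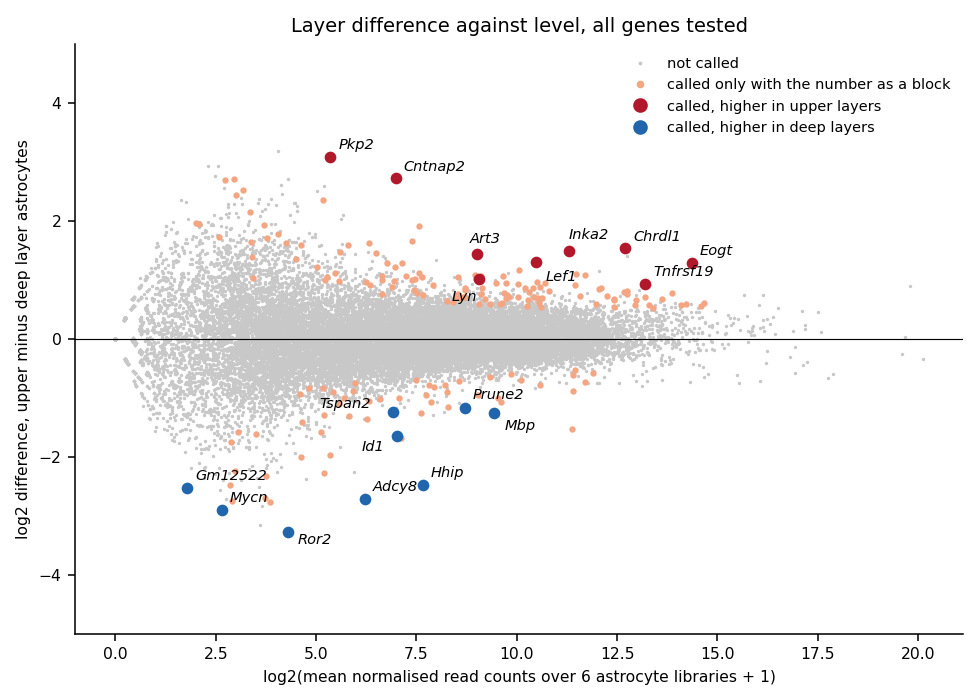
Log2 difference between upper and deep layer astrocytes against the mean level over the 6 libraries (log2 of normalised read counts plus 1) for the 22575 genes tested. Red and blue points are the 9 genes called higher and the 9 called lower, and orange points are those called only with the library number as a block.

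Chrdl1 and Id1, which lie on opposite sides of the BMP pathway, moved in opposite directions between the layers. A link between the 2 differences was not tested. Chrdl1 (chromosome X, 143285674 to 143394262, GRCm38) held 2613, 5078 and 2890 normalised read counts in the deep and 8742, 9371 and 11320 in the upper layer libraries. The upper layer mean was 2.78-fold the deep layer mean (log2 1.53, SE 0.22, adjusted p = 0.0106), and deep layer library 2 was the highest of the deep layers without reaching the upper ones. Without that library the log2 difference was 1.83 (adjusted p = 1.88e-04). Paired by number, the log2 differences were 1.74, 0.88 and 1.97. Id1 (chromosome 2, 152736251 to 152737410) stood at 230, 179 and 174 in the deep and at 59.2, 56.7 and 68.3 in the upper layers, 3.17-fold lower in the upper layers (log2 -1.64, SE 0.19, adjusted p = 0.00279). Id3, a second member of the family, held 2111, 1810 and 1885 in the deep and 1224, 1076 and 1090 in the upper layers. It missed the threshold of the leading test (log2 -0.78, adjusted p = 0.079) and passed it with the block (adjusted p = 0.0276) and in DESeq2 (adjusted p = 6.73e-04), and the 3 pairs were close to each other at -0.79, -0.75 and -0.79.

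The rest of the BMP lists showed no call. Of the 8 BMP response genes tested, 1 was called, in the downward direction, with 5 members below 0 and a median log2 difference of -0.20, against 0.01 over all genes. Id2 (log2 -0.13), Id4 (-0.27) and the inhibitory SMAD gene Smad7 (0.02) did not pass. Among the 9 antagonists tested Chrdl1 was the only call, and Nog, which encodes noggin, was low at 22.4 to 56.7. None of the 8 ligand genes tested was called, including Bmp7, which encodes an abundant BMP ligand of the brain (1111 to 1756 in the deep and 1649 to 2284 in the upper layers, log2 0.39, adjusted p = 0.539). The same held for the 10 receptor and SMAD genes, whose smallest adjusted p was 0.556.

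Eogt (chromosome 6, 97110024 to 97149182) was the called member of the Notch lists. Its values were 12725, 15614 and 8927 in the deep and 29167, 30701 and 28954 in the upper layers, a 2.38-fold difference of means (log2 1.29, SE 0.17, adjusted p = 0.00727). The upper layer libraries lay close together and the deep layer libraries were spread, with library 3 the lowest. Its exons overlap the predicted gene Gm44065, and reads of the pair cannot be told apart where the counting did not use strand. Of the other 13 Notch receptors, ligands and modifiers none was called, and the list ran from a log2 difference of -1.25 to 1.54. Among its other glycosyltransferase genes, Lfng (log2 0.08), Pofut1 (-0.02) and Poglut1 (0.01) lay near 0, and Mfng and Rfng are not described here. Of the 7 Notch response genes none was called, 6 lay above 0 and the median was 0.27. Hes5, a direct target of Notch, ranged from 356 to 752 in the deep and from 799 to 1058 in the upper layers (log2 0.77, adjusted p = 0.384). Heyl, a relative, pointed the other way (log2 -0.51, adjusted p = 0.478).

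Lef1 (chromosome 3, 131110471 to 131224356) was the called member of the 12 Wnt transducers and response genes. It stood at 912, 810 and 723 in the deep and at 2002, 2282 and 1789 in the upper layers, 2.48-fold higher in the upper layers (log2 1.31, SE 0.16, adjusted p = 0.00279). The 3 pairs gave 1.13, 1.49 and 1.31, and leaving out deep layer library 2 left the difference at 1.31 (adjusted p = 0.00516). The exons of Lef1 overlap the predicted gene Gm43352. Nkd1 and Apcdd1, which encode feedback inhibitors of the Wnt pathway, passed with the block and in neither edgeR, DESeq2 nor the leading test. Nkd1 held 269, 288 and 367 in the deep and 443, 499 and 569 in the upper layers (log2 0.71, adjusted p = 0.228, with the block 0.0393). Apcdd1 held 821, 1052 and 1098 against 1238, 1484 and 1632 (log2 0.55, adjusted p = 0.424, with the block 0.0419). In both genes the layers did not overlap. Axin2, a widely used readout of canonical Wnt signalling, also had no overlap, at 996, 577 and 1008 against 1247, 1556 and 1588, with a log2 difference of 0.80 (adjusted p = 0.197, with the block 0.0707, in DESeq2 0.0495). Notum, which encodes an enzyme that inactivates Wnt ligands, had a log2 difference of 2.46 on values of 0 to 10.6 in the deep and 18.7 to 33.4 in the upper layers (adjusted p = 0.248, in DESeq2 0.0191). Of the 12 members, 10 lay above 0, with a median of 0.45 with or without deep layer library 2, against 51.4% of all genes above 0. In the same list 1 member passed as higher in astrocytes than in non-astrocytes and 8 as lower, against 29.6% and 36.8% of all genes. The part of RNA from other cells in these differences was not tested. The other TCF genes were not called, with Tcf7l2 at -0.33 and Tcf7l1 at -0.28. None of the 18 ligand and receptor genes passed, and the largest difference among the frizzled receptors was in Fzd10 (log2 0.66, adjusted p = 0.433).

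The promoters of 3 called genes that were higher in the upper layers and of Hhip, the called gene with the smallest adjusted p, are printed to show where the letters of the Wnt and SMAD motifs lie. Each is the 250 bases before a RefSeq start on GRCm38.p6, 5′ to 3′ along the gene, with a matched motif in capitals: Art3 at chr5:92387884-92388133 (plus strand), Tnfrsf19 at chr14:61037988-61038237 (minus), Lef1 at chr3:131110047-131110296 (plus) and Hhip at chr8:80058009-80058258 (minus).
Art3: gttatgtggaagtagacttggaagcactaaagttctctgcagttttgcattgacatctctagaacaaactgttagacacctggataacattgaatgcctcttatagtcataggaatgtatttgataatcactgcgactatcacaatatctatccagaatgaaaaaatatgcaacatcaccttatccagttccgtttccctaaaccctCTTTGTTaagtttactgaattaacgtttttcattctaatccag
Tnfrsf19: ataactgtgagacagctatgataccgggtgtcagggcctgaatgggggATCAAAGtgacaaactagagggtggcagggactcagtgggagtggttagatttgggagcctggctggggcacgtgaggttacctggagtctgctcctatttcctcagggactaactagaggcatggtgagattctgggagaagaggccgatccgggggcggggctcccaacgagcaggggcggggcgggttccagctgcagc
Lef1: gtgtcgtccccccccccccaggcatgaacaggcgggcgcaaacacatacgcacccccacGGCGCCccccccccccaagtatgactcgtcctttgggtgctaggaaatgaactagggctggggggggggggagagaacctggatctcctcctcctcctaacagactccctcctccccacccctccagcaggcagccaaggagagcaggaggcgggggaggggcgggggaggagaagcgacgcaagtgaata
Hhip: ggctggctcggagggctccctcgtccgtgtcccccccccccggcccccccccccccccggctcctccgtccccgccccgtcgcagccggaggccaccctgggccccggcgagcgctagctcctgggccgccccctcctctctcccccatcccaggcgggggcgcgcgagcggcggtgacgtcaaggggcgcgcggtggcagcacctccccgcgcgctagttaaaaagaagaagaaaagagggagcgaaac
Art3, Tnfrsf19 and Lef1 had several promoters, and for each a promoter that held a match was printed. Promoters were at hand for 11 of the 18 called genes, 5 higher and 6 lower. CTTTGAT or CTTTGTT, the letters of a TCF/LEF motif, were searched on both strands from 250 bases before to 50 after the start. They occurred in 2 of the 5 higher genes, Art3 and Tnfrsf19, in 0 of the 6 lower genes and in 8.28% of 13650 genes (6.97% of 17275 promoters, since a gene can have several). GGCGCC, a GC-rich SMAD motif that reads the same on both strands, occurred in Lef1 and Tnfrsf19 among the higher and in Ror2, Tspan2 and Mycn among the lower genes, and in 21.7% of genes (18.5% of promoters). The Tnfrsf19 match lay in another promoter of that gene, which is not printed. CCACCCA, the core of the GLI motif, occurred in Cntnap2 among the higher and in Ror2, Mycn and Gm12522 among the lower genes, and in 11.5% of genes (9.72% of promoters). No motif searched was in the printed Hhip window.

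Hhip had the smallest adjusted p of all genes, and the rest of the Hedgehog pathway showed no call. Hhip (chromosome 8, 79965851 to 80058006) stood at 358, 326 and 338 in the deep and at 55.4, 52.3 and 76.0 in the upper layers. It was 5.56-fold lower in the upper layers (log2 -2.48, SE 0.24, adjusted p = 0.00102), and the spread within each layer was small beside the gap between them. Its exons overlap Gm27820. Gli1, a transcription factor that the pathway itself switches on, also had lower values in the upper layers (559, 182 and 511 against 225, 99.2 and 174). The layers overlapped through deep layer library 2, and Gli1 did not pass (log2 -1.24, adjusted p = 0.442, with the block 0.141). Its exons overlap Arhgap9 and Gm47200. The ligand receptor Ptch1 (log2 -0.13, adjusted p = 0.787), Gli2 (0.07, 0.893), Gli3 (0.05, 0.949) and the inhibitor Sufu (0.12, 0.838) lay near 0. Shh, which encodes a Hedgehog ligand, was at 0 to 4.72 in the 6 libraries. None of the 8 ligand and receptor genes was called.

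Il33, which encodes a nuclear cytokine released on damage, did not pass the test in any fit tried. Its values were 1547, 2468 and 1681 in the deep and 1033, 967 and 1295 in the upper layers (chromosome 19, 29925114 to 29960718). The layers did not overlap, and the log2 difference was -0.77 (SE 0.24, adjusted p = 0.339, with the block 0.133). Deep layer library 2 was the highest, and without it the difference was -0.57 (adjusted p = 0.468). Across the alternatives the smallest adjusted p was 0.10 and the largest 0.715. None of the 14 genes of innate signalling was called, and their median was -0.04. Il18, another cytokine of the IL-1 family, was at 4745, 5067 and 4383 against 4305, 3904 and 4011 (log2 -0.21, adjusted p = 0.595). Tlr3, a receptor for double-stranded RNA, was far higher in deep layer library 2 (21537) than in the other 5 libraries (7482 to 10731), with a log2 difference of -0.14 (adjusted p = 0.88). Its exons overlap Gm45542.

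Of the study's panel of 6 layer genes (Chrdl1, Eogt, Lef1, Hhip, Id1 and Il33), 3 passed as higher and 2 as lower, and Il33 did not pass. The panel was chosen with results of these libraries known, so these counts are not independent evidence of its direction.

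The other called genes that were higher in the upper layers were Tnfrsf19, Inka2, Art3, Lyn, Cntnap2 and Pkp2. Tnfrsf19, a member of the TNF receptor family (chromosome 14, 60963875 to 61046490), held 6327, 6722 and 6330 in the deep and 10176, 12522 and 14518 in the upper layers (log2 0.93, SE 0.15, adjusted p = 0.0279). Inka2, an inhibitor of an actin-regulating kinase (chromosome 3, 105704599 to 105720842), held 1315, 1091 and 1529 against 2990, 3386 and 4826 (log2 1.49, adjusted p = 0.00279). Art3, of the ADP-ribosyltransferase family (chromosome 5, 92331827 to 92414628), held 323, 325 and 202 against 751, 746 and 748 (log2 1.43, SE 0.22, adjusted p = 0.0142). The 3 upper layer values of Art3 were nearly equal, and its exons overlap Cxcl10. Lyn, a Src family kinase abundant in microglia (chromosome 4, 3678115 to 3813122), held 398, 323 and 338 against 771, 629 and 739 (log2 1.01, adjusted p = 0.0172). In non-astrocytes Lyn stood at 5108 to 6947, and its exons overlap Gm26857. Microglia markers summed to 2223 to 3943 in the deep and 1882 to 4640 in the upper layer astrocytes, at 1.04% and 1.26% of their level in non-astrocytes, and their part in the Lyn difference was not tested.

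Cntnap2, a neurexin family adhesion protein (chromosome 6, 45059357 to 47304213), held 41.3, 22.7 and 27.5 in the deep and 180, 123 and 360 in the upper layers. It was 7.26-fold higher in the upper layers (log2 2.72, SE 0.33, adjusted p = 0.00279), with upper layer library 3 the highest. Pkp2, a desmosomal plakophilin, held 14.2, 8.51 and 3.17 against 81.2, 67.6 and 65.0 (log2 3.09, SE 0.45, adjusted p = 0.0132). Its mean was under 50, so it lay outside the rule for named genes and was named because it passed. The same applies to Ror2, Mycn and Gm12522 below.

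Adcy8, a calcium-stimulated adenylate cyclase (chromosome 15, 64697084 to 64922296), held 146, 58.2 and 184 in the deep and 14.3, 15.3 and 22.0 in the upper layers. It was 7.53-fold lower in the upper layers (log2 -2.71, SE 0.35, adjusted p = 0.00462), and deep layer library 2 was the lowest of its layer. Prune2 (chromosome 19, 16956118 to 17223932) held 510, 709 and 514 against 259, 237 and 259 (log2 -1.18, adjusted p = 0.0142). Ror2, a receptor for Wnt5a that acts outside beta-catenin, held 34.2, 45.4 and 23.3 against 2.86, 1.09 and 4.41 (log2 -3.28, SE 0.54, adjusted p = 0.0319). Wnt5a itself held 237, 285 and 261 against 201, 155 and 190, without overlap between the layers, and did not pass (log2 -0.53, adjusted p = 0.38). Mycn, a MYC family transcription factor, held 14.2, 8.51 and 7.40 against 1.91, 0 and 0 (log2 -2.90, adjusted p = 0.0135, edgeR 0.0879). Gm12522 was at 3.17 to 5.9 in the deep and at 0 in all 3 upper layer libraries (adjusted p = 0.0468, edgeR 0.156), which is a few reads, and its exons overlap Mybphl.

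Mbp and Tspan2, which are known for their part in myelin-forming cells, were lower in the upper layers of both sorted astrocytes and bulk tissue. Mbp, which encodes a main protein of myelin (chromosome 18, 82475146 to 82585637), held 1047, 736 and 1155 in the deep and 366, 335 and 534 in the upper layers (log2 -1.25, SE 0.19, adjusted p = 0.0163). Tspan2, a tetraspanin of oligodendrocytes, held 139, 201 and 167 against 59.2, 78.5 and 73.8 (log2 -1.25, SE 0.19, adjusted p = 0.0142), and its exons overlap Tspan2os. The Mbp level in astrocytes was 2.70% (deep) and 2.47% (upper) of that in non-astrocytes, and for Tspan2 it was 1.67% and 1.63%. In bulk tissue the layer difference of Mbp was -1.79 (adjusted p = 0.0027) and that of Tspan2 was -1.60 (adjusted p = 0.0052). Of the 15 oligodendrocyte and myelin genes, 13 lay below 0, 1 was called and 9 had no overlap between the layers, with a median of -0.93. Over all genes 0.0797% were called in astrocytes and 7.31% had the upper libraries below the deep ones without overlap. The block raised the calls to 7, all lower, against 0.27% of all genes called lower with it. The median was -1.80 in bulk tissue, where 0.456% of all genes were called between the layers (0.159% higher and 0.297% lower). No member was at 0 in all astrocyte libraries. The members summed to 6459 to 7587 in the deep and 4672 to 5868 in the upper layer astrocytes, or 4.74% and 8.16% of their level in non-astrocytes. Of the 15 members, 2 passed as higher in astrocytes than in non-astrocytes and 13 as lower, so the sum does not measure oligodendrocyte RNA alone. The part of oligodendrocyte RNA in the result was not tested. Genes of oligodendrocyte precursors (10 tested, 0 called, median -0.14) summed to 3269 to 4538 and 3164 to 5190. Prox1, a homeobox gene, pointed the same way (119, 111 and 160 against 65.9, 63.2 and 58.4, log2 -1.03, adjusted p = 0.0614, with the block 0.0345, without deep layer library 2 0.0284), and its exons overlap Prox1os.

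The genes that define astrocytes and take part in their common functions were, apart from Chrdl1, not called between the layers by the leading test. Of 20 astrocyte markers 0 were called, 15 lay above 0 and the median was 0.18, or 0.34 without deep layer library 2. Of these markers, 6 had the upper libraries above the deep ones and 1 had them below, against 8.7% and 7.31% of all genes. Slc1a3, a glutamate transporter, held 98787, 137648 and 118206 in the deep and 158215, 169153 and 162014 in the upper layers. The layers did not overlap, and the difference did not pass (log2 0.48, adjusted p = 0.38). The 17 genes of transmitter and potassium uptake (median 0.12, or 0.34 without deep layer library 2) and the 17 genes of cholesterol synthesis (median 0.16) gave 0 calls each by the leading test. Among 16 synapse-regulating factors, Chrdl1 was the single call, and Sparcl1 (log2 0.11), Gpc4 (0.21) and Gpc6 (-0.07), which encode secreted or surface proteins that act on synapses, did not pass. Glycolysis genes lay above 0 in 16 of 17 cases, and 8 had the upper libraries above the deep ones, against 51.4% and 8.7% of all genes. Their median was 0.34, or 0.40 without deep layer library 2. Of the 17 glycolysis genes, 13 passed as higher in astrocytes than in non-astrocytes and 2 as lower, against 29.6% and 36.8% of all genes. None of the 17 was called between the layers by the leading test. Ldha, which encodes a lactate dehydrogenase subunit, held 4229, 3830 and 4574 against 5864, 6873 and 7419 (log2 0.67, adjusted p = 0.22, with the block 0.0331).

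Several genes of signalling and guidance missed the threshold of the leading test and passed it with the block, and some of them also in another fit. Dcc, a netrin receptor, held 533, 553 and 643 in the deep and 961, 1251 and 1113 in the upper layers (log2 0.94, adjusted p = 0.0577, with the block 0.0214, in DESeq2 9.00e-05). Grm3, a metabotropic glutamate receptor, held 13034, 16983 and 15711 against 19297, 24284 and 25286 (log2 0.59, adjusted p = 0.215, with the block 0.0393, in DESeq2 0.0448). Cnr1, a cannabinoid receptor, had a log2 difference of 0.85 (adjusted p = 0.207, with the block 0.0198, without deep layer library 2 0.0127). For Spry1, a feedback inhibitor of FGF signalling, it was 1.09 (adjusted p = 0.15, with the block 0.0176, in DESeq2 0.0114). None of the 4 genes overlapped between the layers. Axon guidance genes were split evenly, with 10 of 20 above 0.

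**Figure D4:**
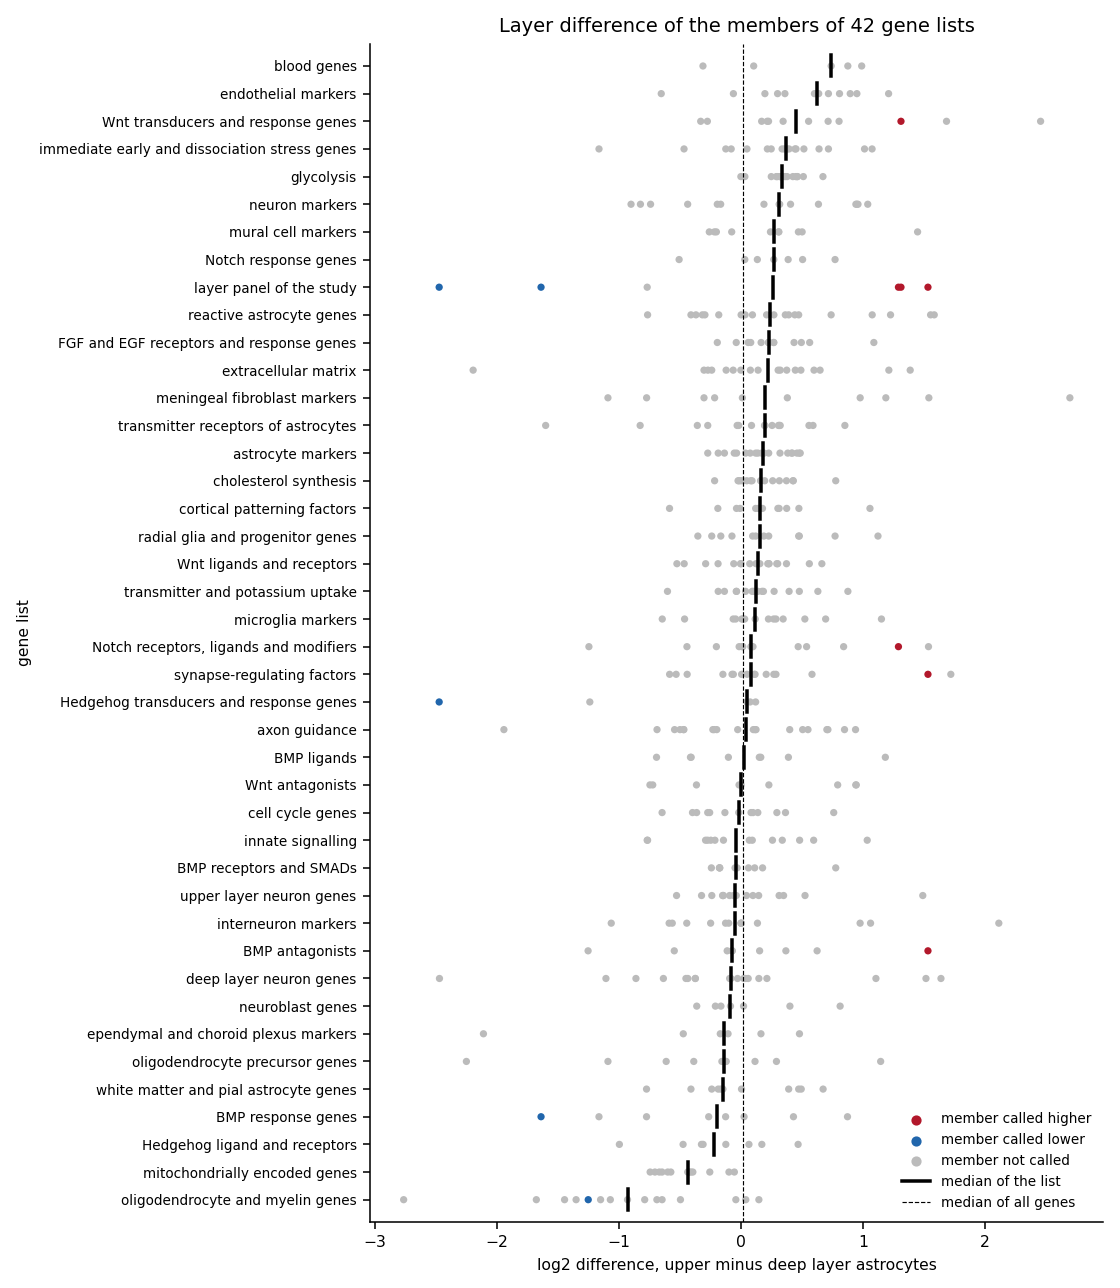
Log2 difference between upper and deep layer astrocytes for the members of the 42 gene lists, one row per list, with a tick at each median and a dashed line at the median of all genes (0.01). Oligodendrocyte and myelin genes have the lowest median of the 42 lists (-0.93). Blood genes (0.74) and endothelial markers (0.62) have the highest, or 0.39 and 0.26 without deep layer library 2. Wnt transducers and response genes have a median of 0.45.

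Apart from Mbp, no marker of another cell type examined was called by the leading test. The endothelial marker Ptprb and the mural cell marker Vtn were called with the block and by DESeq2, and the endothelial marker Ly6c1 without deep layer library 2. The block also called the meningeal fibroblast markers Col1a1 and Lum and the neuron markers Nefm and Camk2a, 1 higher and 1 lower in each list. Endothelial markers (12 tested, 0 called) had a median of 0.62, or 0.26 without deep layer library 2, and summed to 1007 to 1492 in the deep and 1438 to 1872 in the upper layers. That is 1.74% and 2.49% of their level in non-astrocytes. Immediate early and dissociation stress genes (18 tested, 0 called, median 0.37) summed to 3200 to 3429 and 4152 to 4277. The 13 mitochondrially encoded genes all lay below 0 (median -0.44) and had a median of 0.11 without deep layer library 2. None of the reactive astrocyte genes (20 tested) or cell cycle genes (13 tested) passed. The 14 FGF and EGF genes (12 above 0, median 0.23), the 18 extracellular matrix genes (11 above 0, median 0.22) and the 15 neuron markers (9 above 0, median 0.31) also gave 0 calls by the leading test. DESeq2 called Spry1 in the first, and leaving out deep layer library 2 called Col6a1 in the second. The block called Spry1 in the first, Lama1 and Lama4 in the second, and Nefm and Camk2a in the third.

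The layer genes of neurons had medians near 0 in the sorted astrocytes. Upper layer neuron genes had a median of -0.05 in astrocytes and 1.56 in bulk tissue, and deep layer neuron genes had medians of -0.08 and -1.84, with 0 calls in astrocytes in both lists by the leading test. With the block, Pcp4, a deep layer neuron gene, was called lower in upper layer astrocytes (adjusted p = 0.0331). Of the 16 upper layer neuron genes, 6 passed as higher in astrocytes than in non-astrocytes and 9 as lower. Of the 19 deep layer neuron genes, 6 passed as higher and 12 as lower, against 29.6% and 36.8% of all genes. Of the 103 genes called between the layers in bulk tissue, 2 were called in astrocytes, Mbp and Tspan2. The 103 became 428 with DESeq2, 261 with the block and 216 without deep layer astrocyte library 2. They became 11 or 19 without deep layer bulk library 1 or 2, and 20 or 15 without upper layer bulk library 1 or 2. The median size of the 103 differences was 1.58 in bulk tissue and 0.22 in astrocytes. Of the 18 astrocyte genes, 3 had the opposite sign in bulk tissue (Adcy8, Mycn and Gm12522), and the median sizes were 1.51 in astrocytes and 0.64 in bulk tissue. The bulk tissue and the sorted cells share no library, but both hold astrocyte RNA.

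The layer difference itself was compared between astrocytes and bulk tissue by an interaction term, which called 31 genes (0.137%). Of these, 26 were called in bulk tissue and 1 in astrocytes. The count was 0 without deep layer bulk library 1 or either upper layer bulk library, 8 without deep layer bulk library 2, 14 or 12 without upper layer astrocyte library 2 or 3, and 72 without deep layer astrocyte library 2. Adcy8 was the 1, with an interaction of -3.13 (adjusted p = 0.0348), since bulk tissue held 573 and 719 in the deep and 858 and 860 in the upper layers (log2 0.42). Dkk3, a secreted protein of the Dickkopf family, had an interaction of 2.07 (adjusted p = 0.013). It held 3705, 5808 and 4954 against 6893, 7994 and 10038 in astrocytes, and 3949 and 3900 against 1483 and 1765 in bulk tissue (log2 -1.28, adjusted p = 0.0235). Cux2, from the upper layer neuron list (interaction -2.17, adjusted p = 0.0233), and Tle4, from the deep layer neuron list (1.82, 0.0057), were among the 31. Their layer differences in astrocytes were -0.09 and -0.03. Tle4 passed as higher in astrocytes than in non-astrocytes (log2 1.22, adjusted p = 6.64e-08), and Cux2 passed as lower (-2.87, 7.86e-10). For Chrdl1 the layer difference in bulk tissue was 1.20 (adjusted p = 0.065) and in non-astrocytes 1.17 (0.24). For Hhip it was -1.40 in bulk tissue (0.058). Neither gene had a called interaction. Within non-astrocytes 1 gene passed between the layers (0.00443%), Reln, which encodes an extracellular guidance protein (log2 2.06, adjusted p = 0.00248). Against non-astrocytes the interaction also called 1 gene (0.00443%), again Reln (-2.19, adjusted p = 0.0285). In astrocytes the layer difference of Reln did not pass (log2 -0.13, adjusted p = 0.806).

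**Figure D5:**
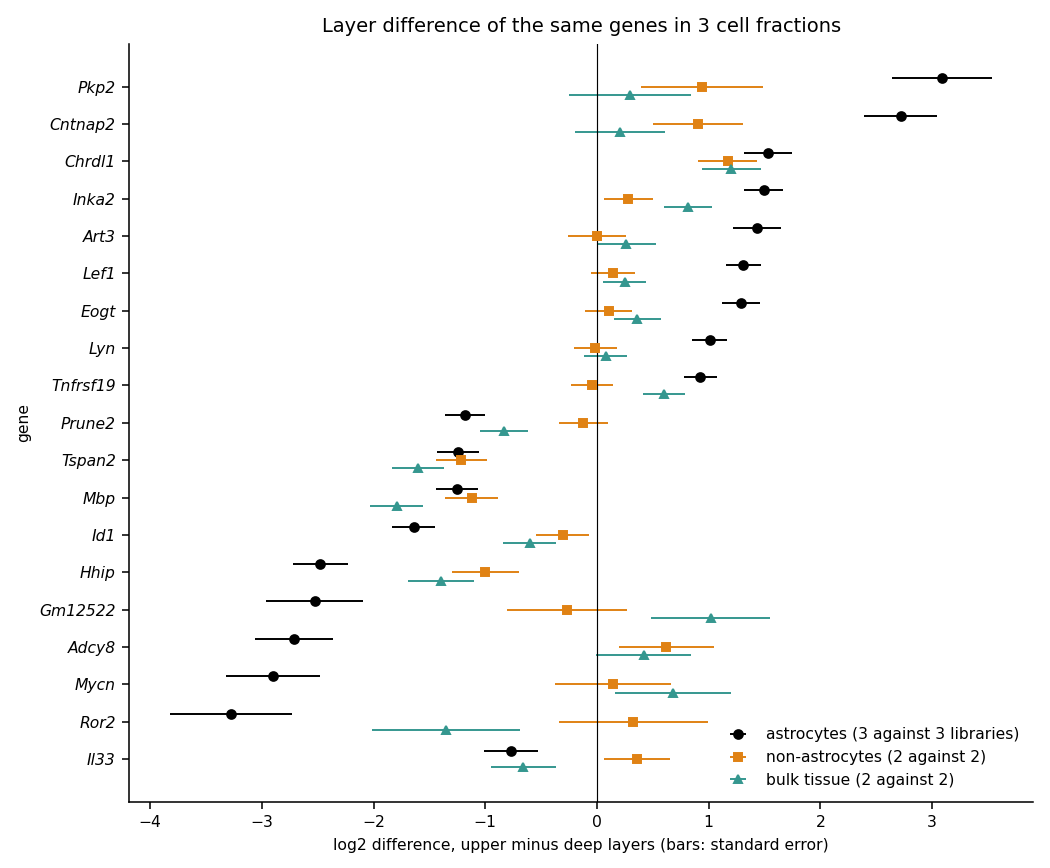
Log2 difference between upper and deep layers, with its SE, for the 18 called genes and Il33 in astrocytes (3 against 3 libraries), non-astrocytes (2 against 2) and bulk tissue (2 against 2). Mbp and Tspan2 lie below 0 in all 3 fractions, while Adcy8 is at -2.71 in astrocytes and 0.42 in bulk tissue.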

How the data were processed

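RNA of 14 libraries was amplified with a kit that starts from full-length RNA and sequenced as single-end reads, per the labels' protocols. The submitters' processing notes name CASAVA, TopHat2 2.0.11, HTSeq 0.6.1p1, DESeq2 and the build GRCm38, and whether counting used strand is not given in the sources used here. The deposited values are a signal per gene, reads divided by 1 size factor per library. 100% of values came out as whole reads within 1e-06 in each library. Of 32830 genes in the table, 32007 were matched to GENCODE M21 for position and overlap.

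Genes with a value of at least 10 in at least 2 libraries (22575) were tested with limma 3.58.1 in R 4.3.3 on log2 of the value plus 1, with trended and robust variance, all 14 libraries in a model of 6 group means and Benjamini-Hochberg adjustment. Alternatives were edgeR 4.0.16 and DESeq2 1.42.0 on the recovered reads, other filters, pseudocounts, scalings and sample sets. In data simulated for this comparison over 22575 genes, the leading test recovered 1.49% of genes changed 1.5-fold, 41.8% changed 2-fold and 90.9% changed 4-fold, with 8 false calls. The changed genes all had an astrocyte mean of at least 50. Every fraction was given the spread of the astrocyte libraries, and libraries of the same number shared no deviation. There limma on the 6 astrocyte libraries recovered 93.9% of 4-fold changes, while on the real data it called 1 gene, so the settings differ. The libraries' labels do not say that they came from separate animals, so a p-value reflects only how much these particular libraries varied, part of which can be technical.

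Upper and deep astrocyte libraries of the same number deviated together from their group means over 14274 genes (correlations 0.446, 0.240 and 0.415), so the numbers were taken to pair the samples. Across numbers the correlations were -0.103 to -0.270. Deviations from a group mean sum to 0 for each gene, so these negative values follow in part from the positive ones and add no separate evidence. Pairing by number was not checked in the other fractions. Genes were named by rule: the panel and Aldh1l1, called genes without overlap and with a mean of at least 50 (in the downward direction also the next by p), and up to 4 members of a list by smallest p. Other genes named in the text were chosen after their values were seen. The members and the 42 lists were chosen with earlier results of these data known. Promoter sequences are from RefSeq, build GRCm38.p6.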

Additional observations from a re-analysis of the deposited data

Results flagged for a closer look

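The layer difference differed between fractions, by an interaction term in limma over all genes tested. Between astrocytes and bulk tissue 31 genes passed, and between astrocytes and non-astrocytes 1 gene passed, Reln. Its layer difference was 2.06 in non-astrocytes and -0.13 in astrocytes, where it did not pass. Adcy8 had an interaction of -3.13 against bulk tissue (log2, adjusted p = 0.0348), with the upper layers lower in all 3 astrocyte pairs and a difference of 0.42 in bulk tissue. Dkk3 had an interaction of 2.07 (adjusted p = 0.013), with the upper layers lower in bulk tissue and higher in astrocytes, where its own difference missed the threshold of the leading test (adjusted p = 0.181) and passed with the block (0.0393) and in DESeq2 (0.0281).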

How the results depend on the processing

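The 18 calls between upper and deep layer astrocytes became 1 with the 6 astrocyte libraries only, 4 without trended and robust variance, 142 with DESeq2, and 188 with the replicate block within fraction. They became 0 with the replicate block on the 6 libraries, with or without number 2. Chosen after seeing the data, the 6 libraries without deep layer library 2 gave 3, and edgeR on the 6 libraries gave 1. Leaving out 1 astrocyte library gave 12 to 56 calls: 35 without deep 1, 35 without deep 2, 56 without deep 3, 21 without upper 1, and 12 without upper 2 or upper 3. Over 20 alternatives the 18 genes gave 352 values, of which 246 kept their call, 106 lost it and 0 changed sign. The 31 interaction calls against bulk tissue became 112 with the replicate block, 74 with a pseudocount of 5, 47 with a mean filter of 50, 50 with edgeR and 200 with DESeq2, and ran from 0 to 72 when 1 library was left out. The 1 call against non-astrocytes became 4 with the replicate block, 0 with scaling by total non-mitochondrial reads, 59 with DESeq2 and 2 without trended and robust variance, and ran from 0 to 2 when 1 library was left out. Some uncalled genes changed sign (leading values 0.07 for Gli2, 0.12 for Sufu, 0.34 for Nfkb1, 0.87 for Bambi and 0.94 for Sfrp4): Gli2 was -0.017 without deep 2, -0.013 without upper 2 and -0.10 with the replicate block without number 2, where Sufu was -0.0043, Nfkb1 -0.0088 and Bambi -0.011. Without deep 2, Bambi was -0.017 and Sfrp4 -0.077. With 1 library left out, the highest values were 0.15 for Gli2, 1.58 for Bambi and 1.72 for Sfrp4. The cause of these changes was not tested. Low values limit Mycn, Gm12522 and Ror2 to a few reads in the upper layers.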
